A study of Arabidopsis thaliana with 4 samples.

Results

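The high domains described here are stretches of probes from consecutive wells with the upper values of an H3K4me2 profile from Arabidopsis thaliana seedlings. They lie on the TB plates of the array, a series of 100 printing plates with 96 wells each. Each deposited profile was centred on its median over the whole array, the 2 replicates were averaged, and the TB probes were put in the order of plate, row and column. A domain was a run of 2 or more consecutive wells with a mean above 1. The members were thus chosen by the deposited values themselves, so their height, width and number are given as a description without a test. The rule found 368 domains with 1099 member probes, which is 11.5% of the 9588 TB probes with a value and part of 21728 valued probes on the array.

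The samples were whole seedlings of accession Col-0 with an age of 10 days, untreated and grown in liquid culture. Immunoprecipitated DNA, enriched by an antibody to H3K4me2, and its own input DNA were hybridised together on 2-colour arrays. The series held 1 group with 4 arrays, a dye swap for each of the replicates called I and II, and no control tissue or mutant. The 2 columns of a swap were identical for every feature (0 differed), so n was 2 profiles. Where I and II came from was not given beyond their numbers, so the spread between them may be technical.

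H3K4me2 is a histone H3 tail with 2 methyl groups on lysine 4. It is placed by methyltransferases of the Trithorax group and taken off by lysine demethylases. In Arabidopsis it is known to lie along the promoters and transcribed parts of genes, over active genes as well as many silent ones, and to be scarce over transposons and heterochromatin.

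The label of these domains as high in H3K4me2 could not be checked against genes. The files paired no probe with a gene, a position or a sequence, so width and spacing are counted in wells and not in bases. Whether consecutive wells hold probes that adjoin in the genome, within a plate or across a plate border, is not known here. The values are log ratios of unstated base, and whether positive values stand for immunoprecipitate or for input was not settled by the values. "High" below means a larger deposited log ratio than the median probe. All levels are in these units after centring. Before centring, the median probe had -0.02 in replicate I and 0.47 in replicate II.

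Values above 1 were more frequent on the TB plates than over the array. Of all probes on the array, 11.1% had a mean above 1, and of the TB probes 15.1% did (1449 probes). Among these 1449, 1099 (75.8%) had a neighbour above 1 and were members, while 350 stood alone and were left out. The single wells had a median of 1.12, against 1.26 among the members. Replicate I gave a median of 1.31 over the members and replicate II 1.252 (SD 0.04, n = 2). The other 8489 TB probes had a median of 0.24 (0.21 in replicate I and 0.24 in replicate II), and the highest of them, at 2.09, was a single well.

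Members reached from 1.0003 to 2.28, with quartiles at 1.13 and 1.45. Of the 1099 members, 678 (61.7%) exceeded 1.2, 234 (21.3%) exceeded 1.5, 52 (4.73%) exceeded 1.8 and 12 (1.09%) exceeded 2. Most domains were therefore modest in height and a small number stood out. Counted by their highest well, the summit, 318 domains exceeded 1.2, 144 exceeded 1.5, 35 exceeded 1.8 and 9 exceeded 2.

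Near the level of 1 the rule separated probes that hardly differed. Well TB43H09 was just inside at 1.0003, with 0.91 in replicate I and 1.09 in replicate II, and belonged to a domain of 5 wells. Wells TB02B08 and TB57G08, at 1.0004 and 1.0005, were just above the level but stood alone. Wells TB00F02, TB84C09 and TB13G08 were just outside at 0.9999, 0.9998 and 0.9996. In TB00F02 the replicates were at 0.76 and 1.24, so the profiles fell on opposite sides of the level.

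Domains were narrow. A width of 2 wells was found in 181 domains (49.2%) and of 3 wells in 105 (28.5%). The numbers then fell to 34 domains of 4 wells, 29 of 5, 10 of 6, 4 of 7, 2 of 8 and 1 each of 9, 10 and 18 wells. The mean width was 2.99 wells. With domains called in replicate I alone it was 3 wells and in replicate II alone 3.11 (SD 0.08, n = 2). The 82 domains of 4 wells or more (22.3%) held 422 members (38.4%), and the 19 domains of 6 wells or more held 141 (12.8%).

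**Figure D1:**
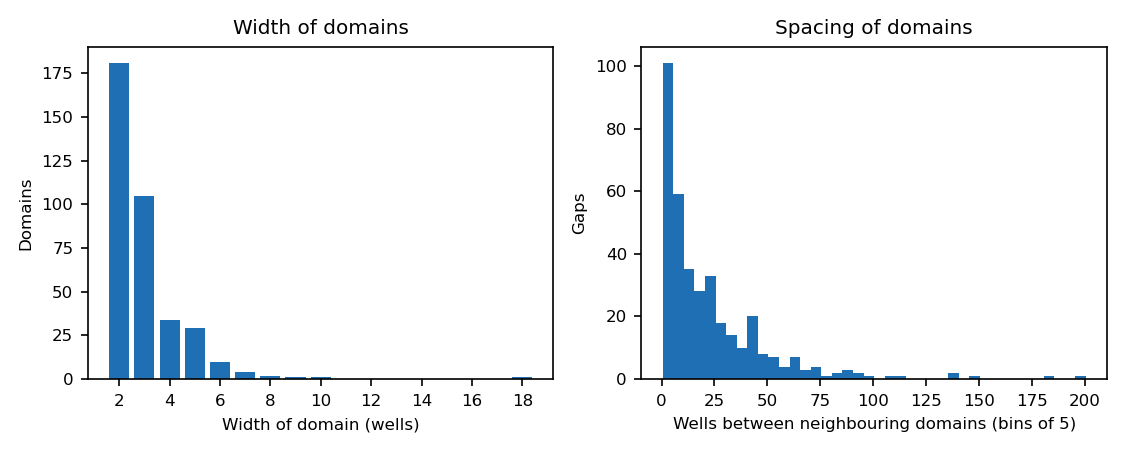
The left panel shows the number of domains by width in wells, and the right panel the number of gaps by the wells between neighbouring domains, in bins of 5. Widths of 2 and 3 wells make up 286 of the 368 domains in the left panel, and 101 of the 367 gaps fall in the first bin on the right.

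Some domains ran across plate borders, which the rule allows. Of the 368 domains, 13 continued from well H12 of a plate to well A01 of the next. Both wells were above 1 at 13.1% of the 99 plate borders and at 7.58% of the 9476 neighbouring pairs inside plates. With 13 borders this difference was not tested. After any well above 1, the next well was above 1 in 50.6% of cases. Only 2 domains lay beside 1 of the 12 empty TB wells, which were on plates 10, 26 and 58.

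The widest domain covered 18 wells of plate 75, from TB75F07 to TB75G12, with a mean of 1.23 in replicate I and 1.18 in replicate II. It was wide without being high, as its wells ran from 1.002 in TB75G04 to 1.65 in TB75F11. The level was not smooth within it. A first rise peaked in TB75F11 (1.77 in I and 1.53 in II), a second in TB75G02 (1.59 and 1.51), and a later one in TB75G11 (1.41 and 1.39). Between these rises the values came close to 1 in both replicates. TB75F12, between the first and second rise, was at 1.03 in I and 1.04 in II. The well after the domain, TB75H01, was at 0.9993 and ended it by a margin smaller than the gap between its replicate values, 0.94 and 1.06. Neither replicate alone held the full 18 wells, and the longest domain called in 1 replicate had 11 wells in both I and II. Before the domain the profile dropped to -0.88 in TB75F03, with -1.09 in I and -0.68 in II.

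**Figure D2:**
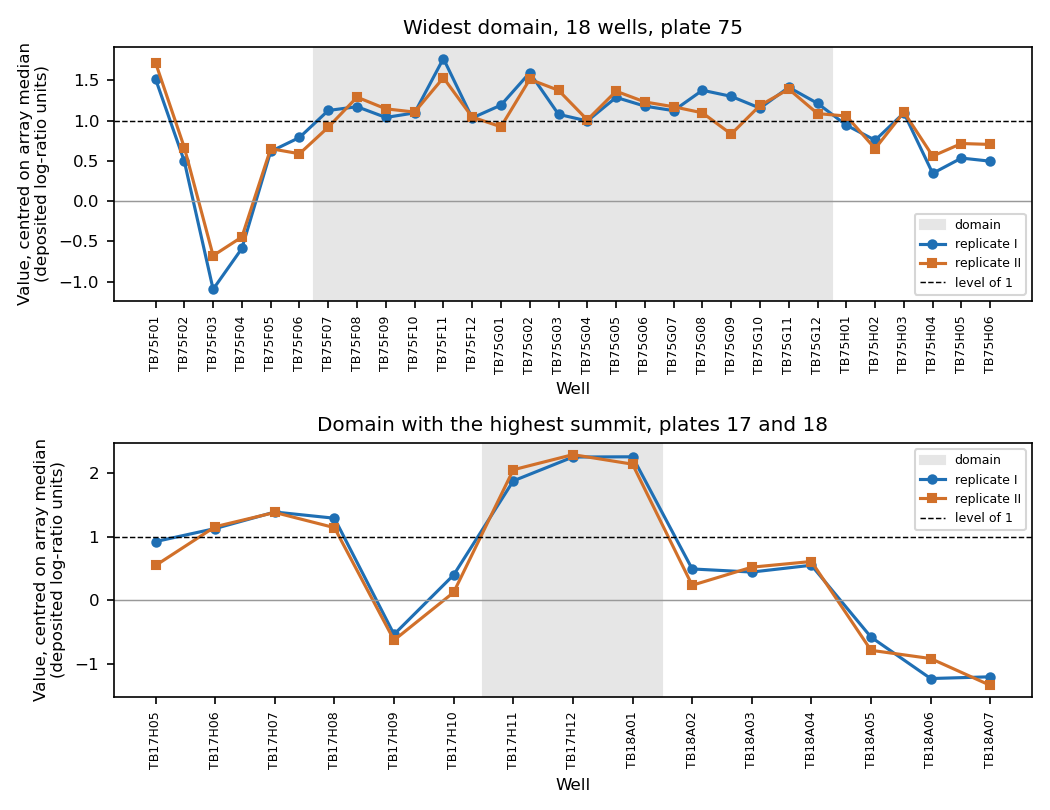
Values of replicate I (circles) and replicate II (squares) by well for the widest domain (top) and for the domain with the highest summit (bottom), with 6 wells on each side; the vertical axis is in deposited log-ratio units centred on the array median, the shaded wells are the domain and the dashed line is the level of 1. The wide domain stays mostly between 1 and 1.7, whereas the highest one rises above 1.8 in 3 wells and falls below 0.5 on both sides.

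The other wide domains had different forms. Wells TB93H09 to TB94A06 formed a domain of 10 wells across a plate border, at 1.31 in I and 1.26 in II, whose summit was its first well (1.67 and 1.78). That well followed TB93H08 at 0.39, so the domain began with a step. Wells TB38E01 to TB38E09, a domain of 9 wells, rose from 1.03 to 1.77 in TB38E07 (1.83 in I and 1.70 in II) and ended at 1.05. Its edge wells, at 1.03 and 1.05, were the closest to each other among the 5 widest, but its summit lay in well 7 of 9.

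The 2 domains of 8 wells contrasted in height. Wells TB60D10 to TB60E05 had a mean of 1.57, with 1.76 in replicate I and 1.38 in replicate II, the largest disagreement between replicates among the 5 widest domains. Its summit TB60E03 was at 2.23 in I and 1.81 in II. Wells TB71B11 to TB71C06 had means of 1.27 in I and 1.23 in II. This domain rose directly from a low stretch, as the well before it was at -0.81 and the third well before it, TB71B08, at -1.33.

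The 5 highest summits belonged to domains of 3 or 4 wells. Height was not limited to narrow domains, as the highest summit among those of 6 wells or more was at 2.07 and TB60E03, in a domain of 8 wells, at 2.02. Wells TB17H11 to TB18A01 formed the highest domain, 3 wells wide with a mean of 2.13 in replicate I and 2.17 in replicate II. Its summit TB17H12 was at 2.26 in I and 2.30 in II. The wells on both sides were at 0.26 and 0.36, so the profile fell from about 2 to under 0.4 within 1 well on each side. A lower domain of the same width, TB17H06 to TB17H08, ended 2 wells before it, and TB17H09 between both was at -0.59.

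The next 4 highest domains had 3 or 4 wells each. TB48G12, in a domain of 4 wells, was at 2.18 in I and 2.22 in II. TB53F05 was at 2.33 and 2.05 and was the first well of its domain of 4. TB72A03 was at 2.20 and 2.11, and TB01G01 at 2.12 and 2.10. The domain around TB72A03, from TB72A01 to TB72A04, was the most isolated of the 5, with -0.30 before it and -1.39 after it. The domain around TB01G01 had a more gradual form, with 0.61 before and 0.83 after its 3 wells.

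Summit height differed between width classes. The median summit was 1.34 in domains of 2 wells, 1.42 in domains of 3, 1.58 in domains of 4, 1.55 in domains of 5 and 1.61 in domains of 6 or more. Replicate I gave 1.41, 1.46, 1.70, 1.58 and 1.67 for these classes, and replicate II 1.33, 1.40, 1.52, 1.503 and 1.57. A wider domain has more wells from which its highest is taken, so this order is partly set by the width itself. The median of the domain means, which is free of that choice, ran only from 1.254 to 1.34 over the classes.

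In domains of 3 to 5 wells the interior was higher on average than both edges. Over the 105 domains of 3 wells, the mean was 1.26 ± 0.02 in the first well, 1.37 ± 0.07 in the middle one and 1.31 ± 0.02 in the last (SD, n = 2). Over the 34 domains of 4 wells, the inner wells were at 1.46 ± 0.05 and 1.49 ± 0.02, against 1.35 ± 0.03 and 1.30 ± 0.03 at the edges (SD, n = 2). In domains of 3 wells the first well and the middle one differed by 0.15 in replicate I and 0.08 in replicate II. The 29 domains of 5 wells were flat inside, with 1.37, 1.38 and 1.42 in the 3 inner wells and 1.29 and 1.28 at the edges.

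The summit lay inside the domain in 47 of the 105 domains of 3 wells (44.8%), in 28 of 34 domains of 4 wells (82.4%), in 25 of 29 domains of 5 wells (86.2%) and in 15 of 19 domains of 6 wells or more (78.9%). By the rule an edge well borders a well at or below 1 and an inner well borders members, so in a profile of similar neighbours a summit inside is favoured beforehand. With the summit equally likely in every well, the share inside would be 33.3%, 50%, 60% and 71.0% for these 4 classes. The higher interior is therefore only a description. Wide domains often had more than 1 rise. Of the 48 domains of 5 wells or more, 38 had at least 2 local maxima in the mean profile.

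**Figure D3:**
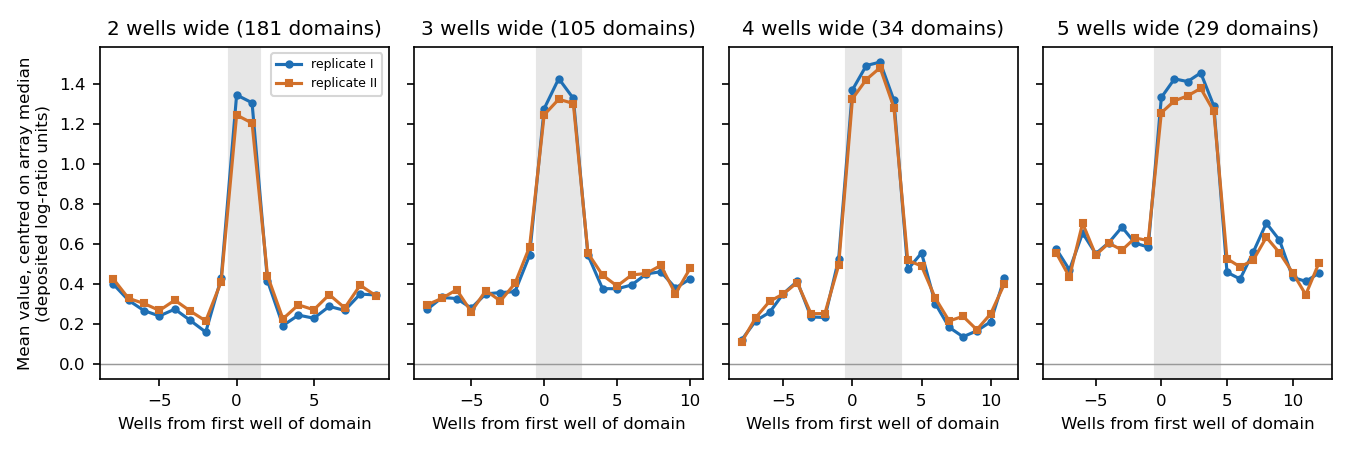
Mean value by well in deposited log-ratio units for domains of 2, 3, 4 and 5 wells, with replicate I as circles and replicate II as squares; the shaded wells are the domain and the horizontal axis counts wells from its first well. The profile falls within 1 well from above 1.2 to between about 0.4 and 0.6 in each width class and in both replicates. Replicate I lies above replicate II at every well inside the domains.

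The fall at the domain edge was steep. Over 702 first flanking wells with a value, the mean was 0.47 in replicate I and 0.48 in replicate II (SD 0.005, n = 2) and the median of the replicate means was 0.64. These wells were set by the average of both replicates, so that SD leaves out the spread in the calls. With domains called and read in 1 replicate alone, the mean was 0.42 in I and 0.51 in II. The edge wells exceeded the neighbouring flank by 0.79 on average. Since the rule cuts at 1, edge wells are above and flanks below that level by construction, and the step is larger than it would be at a random position.

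A replicate that took no part in calling gave a smaller step. For domains called in replicate I alone, replicate II had a mean of 1.17 in the edge wells and 0.45 in the first flanking wells, a step of 0.71. For domains called in replicate II alone, replicate I had 1.22 and 0.52, a step of 0.70. The step was thus present in the replicate that had not set the edge, in both directions of the exchange. A sign-flip test over 2 profiles cannot give a two-sided p below 0.5.

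Flanks reached a wide range of levels. Of the 702 wells, 426 (60.7%) lay between 0.5 and 1, 167 (23.8%) between 0 and 0.5, and 109 (15.5%) at or below 0. Only 9 (1.28%) lay at or below -1. The lowest was TB53C06, at -1.96 in I and -2.35 in II. It directly preceded the domain TB53C07 to TB53C08, which had a mean of 1.15 in I and 1.23 in II, so that well lay more than 3 below the domain mean in each replicate.

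By limma, with p-values adjusted after Benjamini-Hochberg over the whole array and a threshold of 0.05, 515 of the 702 first flanking wells (73.4%) lay above the array median and 55 (7.83%) below it, while 132 were not called. The background was 40.3% higher and 40.2% lower over all probes, and 52.8% higher and 24.1% lower over the TB probes. The flanks were picked beside high wells and capped at 1, so these shares describe them and test nothing. The lower count was 116 when centred on the TB median and 15 without centring. All 1099 members were called higher, which follows from the rule.

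Neither side of the domains was favoured. The well before a domain had a mean of 0.48 ± 0.0008 and the well after it 0.49 ± 0.02 (SD, n = 2, over the same wells in both replicates). The difference, after minus before, was -0.01 in replicate I and 0.01 in replicate II over 366 domains with both flanks, and the higher flank came after the domain in 187 of them. Single domains were often uneven, as the size of the difference between both flanks had a median of 0.33. In 72 domains 1 flank lay at or below 0 while the other exceeded 0.5, in 140 both exceeded 0.5, and in only 10 both lay at or below 0.

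Beyond the first well the surroundings soon lost their trend. The mean was 0.31 ± 0.03 at the second well before a domain and 0.34 ± 0.03 at the second well after it (SD, n = 2). From 2 to 12 wells away it stayed between 0.26 and 0.40, slightly above the mean of 0.24 over all TB probes. These wells include members of neighbouring domains. Around domains of 2 wells the second wells were lower, at 0.19 ± 0.04 before and 0.21 ± 0.02 after (SD, n = 2). Domains of 5 wells lay in higher surroundings, with 0.62 ± 0.02 at the second well before and 0.45 ± 0.04 at the second well after.

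Many domains were the upper part of broader stretches. Followed outwards while the mean stayed above 0.5, the median extent was 5 wells, and above 0 it was 12 wells. Only 57 domains (15.5%) had no such shoulder above 0.5. The 368 domains lay in 324 separate stretches above 0.5 and in 276 above 0. Of the stretches above 0, 63 held 2 or more domains, and these took in 155 domains (42.1%). As background, 65.2% of all TB probes were above 0.

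The most domains in 1 stretch above 0 were 6, reached in 2 places. Wells TB06H03 to TB07B11 formed a stretch of 33 wells with a mean of 1.06 in replicate I and 1.09 in replicate II, of which 23 were members. Wells TB90C08 to TB90G08 formed the longest stretch above 0 that held a domain, 49 wells with a mean of 0.96 in I and 0.99 in II, of which 21 were members. A level above 0 throughout is how the stretches were defined. The dips between their domains differed in depth: TB07A06 was at 0.02, the lowest of the first stretch, while the single wells TB07A02 and TB07B02 were at 0.97 and 0.93, and the lowest of the second stretch was 0.07.

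The spacing of domains was uneven. Between neighbouring domains lay a median of 14 wells (13 with domains called in replicate I alone and 14 in II), with quartiles of the 367 gaps at 5 and 31 wells. The gap followed the rule: its median was 7 wells with a level of 0.75, 28 with runs of at least 3 wells, 8 without centring and 59.5 when centred on the TB median. Short gaps were common: 32 gaps had 1 well, 20 had 2 and 20 had 3, and 101 (27.5%) had at most 5. At the other end, 45 gaps exceeded 48 wells and together took up 3553 wells (37.01% of the TB wells). Of these, 8 exceeded 96 wells.

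Short gaps were shallow and long gaps deep. The 32 gaps of 1 well had a median of 0.80, and 3 of them were below 0. The deepest of these was TB40H08, at -1.21 in I and -1.37 in II. It separated a domain of 2 wells with a mean of 1.19 from one of 3 wells with a mean of 1.43. In gaps of 2 to 5 wells the lowest well had a median of 0.20, and 25 of 69 went below 0. In gaps of 6 to 20 wells it was -0.70, in gaps of 21 to 48 wells -1.11, and in gaps over 48 wells -1.46. More wells give a lower minimum, so the median level is given as well. It was 0.60, 0.31, 0.28 and 0.15 over these classes from short to long. The median is not free of gap length either, as short gaps hold a larger share of wells next to domains.

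The longest gap ran over 197 wells from TB34A08 to TB36A12. Its median was -0.22 in replicate I and -0.19 in replicate II, and 4 single wells in it exceeded 1. The second longest, 185 wells from TB29B05 to TB31A09, was not low. Its median was 0.34 in I and 0.30 in II, and 10 single wells in it exceeded 1. Then came 146 wells from TB20E08 to TB22A09 (median 0.02 in I and -0.003 in II), 139 wells from TB18B04 to TB19E10 (-0.14 and -0.33) and 136 wells from TB57E09 to TB58H12 (0.43 and 0.54). The last held 12 single wells above 1. A lack of domains therefore went with a low level in some stretches and with a level near or above the TB median of 0.36 in others.

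The same rule turned to values below -1 gave 144 runs with 421 probes (4.39%) on the TB plates, beside 368 domains with 1099 probes above 1. Which side held more depended on the centre, as the TB median lay at 0.36. Centred on the TB median, an alternative chosen after seeing the data, there were 342 runs with 1168 probes below -1 and 101 domains with 263 members above 1. With the array median as centre, the mean width of the low runs was 2.92 wells, near that of the domains. Between a domain and the nearest such low run lay a median of 33.5 wells. Such a run lay within 5 wells of 42 domains (11.4%) and touched 4 of them. The same share was not worked out for TB wells at large. These numbers therefore do not tell whether domains and low runs lie near each other or apart.

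Plates differed in their number of members. The median was 10.5 per plate, with quartiles at 5 and 15 and a range from 0 to 33. Plates TB06 and TB60 held 33 members each, followed by TB38 with 29, TB75 with 26 and TB07 with 24, a number that TB90 also reached. Called in 1 replicate alone, TB06 held 32 in I and 33 in II, TB60 33 and 34, and TB38 32 and 22. The 9 plates with over 20 members held 237 (21.6%) of all members, and the 28 plates with at most 5 held 83.

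The richest plates were composed differently. The 33 members of TB06 came mostly from many short domains, as 11 domains began on that plate and none was wider than 5 wells. On TB60 only 6 domains began, among them the domain of 8 wells around TB60E03 and one of 7 wells, TB60A06 to TB60A12, with a mean of 1.37 in replicate I and 1.47 in replicate II. On TB75, 18 of the 26 members belonged to the widest domain. TB38 held 2 neighbouring wide domains, of 7 and 9 wells, parted by TB38D12 at 0.86.

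No member lay on 6 plates, TB21, TB23, TB30, TB35, TB58 and TB99. Of these, TB23 and TB35 also held none when either replicate was used alone. TB30 held 6 in replicate I and 5 in replicate II, in runs that the mean profile did not keep. The medians of the 6 plates differed, from -0.31 in TB23 to 0.29 in TB58. TB58 also had 4 empty wells, but TB26 had 7 and held 16 members.

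**Figure D4:**
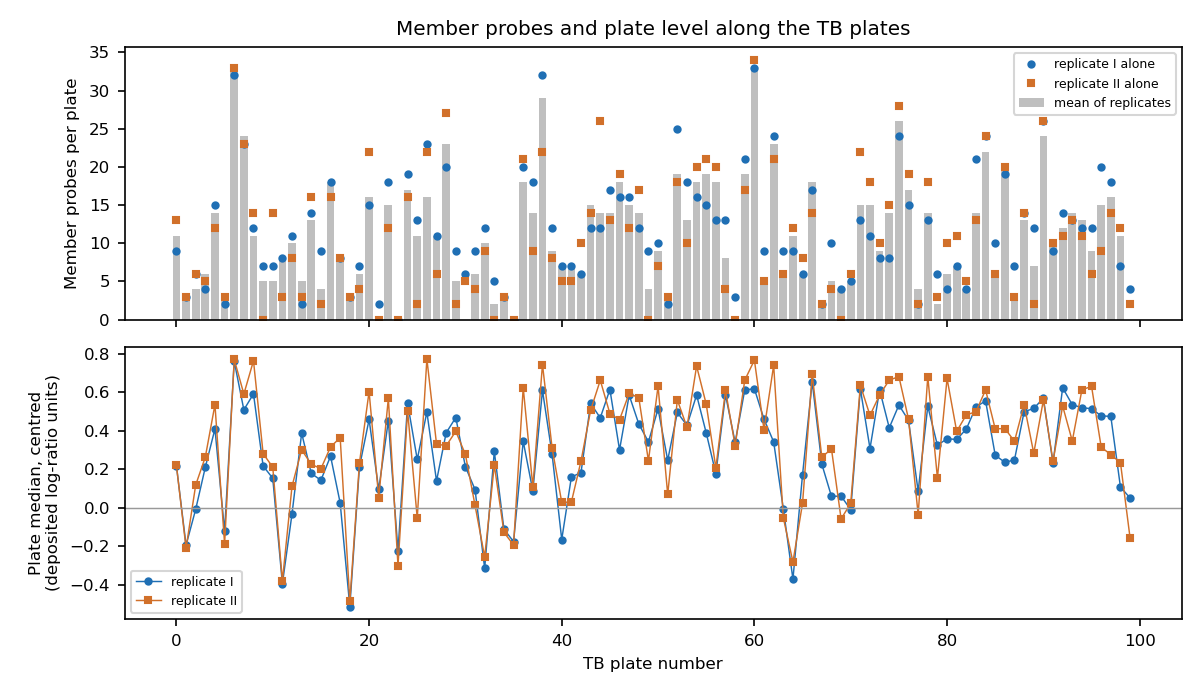
Top, member probes per TB plate called on the mean of the replicates (bars), in replicate I alone (circles) and in replicate II alone (squares); bottom, the plate medians of both replicates in deposited log-ratio units centred on the array median. Plates TB06 and TB60 reach 33 members, and neighbouring plates often differ widely in both panels.

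Across the 100 plates, members per plate in replicate I and in replicate II had Pearson's r of 0.814 and Spearman's rho of 0.791. Members per plate and the plate median had r of 0.629 and rho of 0.671, and with the members taken out of the median r was 0.323 and rho 0.373. Plates share the same 2 profiles and the members enter the first median, so these values are descriptions. Plate median and members did not always go together. TB08, with a median of 0.68, held 11 members, while TB64, with a median of -0.33, held 11 too.

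Over stretches of 10 plates the share of members was more even. It was lowest in plates 10 to 19, at 8.34% (9.07% when called in I and 8.03% in II), and 9.48% in plates 30 to 39 (12.2% and 8.44%). The other 8 stretches lay between 10.6% and 13.2%, the highest being plates 50 to 59 (14.2% and 12.6%). The replicates differed by up to 3.75 percentage points within a stretch, as plates 70 to 79 had 10.9% in I and 14.7% in II. Plates 30 to 39 differed by as much in the other direction. These were the largest differences between replicates, and the smallest was 0.10 points, in plates 0 to 9. Most differences between stretches were below the largest value, which is a wide yardstick, and whether stretches differ was not tested.

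Called separately, most domains of each replicate shared at least 1 well with a domain of the other. Of the members, 879 (80.0%) were above 1 in both, 136 only in replicate I and 84 only in replicate II. Members were chosen by the mean of both replicates, so these shares are partly set by the rule. In 193 domains (52.4%) every well was above 1 in both. The lowest value of a member in a single replicate was 0.63. Called separately, replicate I gave 394 domains with 1182 probes and replicate II 350 domains with 1089 probes. They shared 784 probes, which is 66.3% of those of replicate I and 72.0% of those of replicate II. Of the domains, 275 of 394 (69.8%) and 273 of 350 (78.0%) had a well in common with a domain of the other replicate. The share that unrelated runs would have in common was not worked out.

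Probes in domains called in 1 replicate stayed high in the other. Those called in replicate I had a median of 1.30 there and 1.21 in replicate II, and 76.0% of them were above 1 in II. Those called in replicate II had a median of 1.248 there and 1.24 in replicate I, and 77.4% were above 1 in I. Over all TB probes, 16.1% were above 1 in replicate I and 15.9% in replicate II. In each direction 1 probe was at or below 0 in the other replicate. Within the domains, the highest well was the same in both replicates in 216 of 368 cases (58.7%), with 64.1% in domains of 2 wells and 54.3% in domains of 3. If each replicate picked its highest well at random, both would match in 1 of 2 cases in domains of 2 wells. In domains of 3 wells they would match in 1 of 3.

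Replicate II was lower than replicate I over the members, by a mean difference, II minus I, of -0.07 across probes, and II exceeded I in 38.5% of them. Over the other TB probes the mean difference was 0.01 and II exceeded I in 50.9%. The SD of the difference across probes was 0.26 in the members and 0.31 in the others. The difference also moved with the column of the plate: members in odd columns had a mean of -0.05 and those in even columns -0.10. Over all TB probes it was 0.03 in odd and -0.03 in even columns, with the sign changing from each column to the next, so the column pattern was not limited to the members. Its part in the members' values was not tested.

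The same rule was applied to the other plates. The TA plates had 191 domains with 5.80% of their probes as members (6.36% in replicate I and 6.09% in II), and the TB plates had 11.5% (12.3% and 11.4%). The difference was 5.66 percentage points, 5.97 in I and 5.27 in II (SD 0.50, n = 2). Without TA plates 21 to 30 and 37 to 51, where only 0.671% of probes were members, TA had 7.42% and the difference fell to 4.04 points (SD 0.43, n = 2). These differences exceeded the spread between replicates, but 2 profiles cannot give a two-sided sign-flip p below 0.5. The TA probes also lay lower as a whole, with means of -0.37 in odd and -0.38 in even columns, against 0.24 over all TB probes. The level of 1 thus lay further above the typical TA probe. Whether the shares differ beyond this offset was not tested.

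High density was not found on TB plates alone. TA plates 1 to 20 had 12.5% of their probes in domains (12.9% in each replicate), and TC plates 0 to 13 had 9.13% (11.3% in I and 7.42% in II). TC plates 17 to 30 had no domain. The mean width was 2.99 wells on TB, 2.83 on TA and 2.85 on TC plates 0 to 13. TB exceeded all TA plates by 0.23 wells in I and 0.21 in II. The median summit was 1.43 on TB, 1.42 on TA and 1.40 on TC plates 0 to 13. Groups with few domains lay further apart. The PD plates, with 9 domains, had a median summit of 1.55 and a mean width of 3 wells. TA plates 21 to 30 and 37 to 51, with 7 domains, had a median summit of 1.29. Summits are read only in runs above 1, which limits how far their median can differ. TB held 3.84 domains per 100 probes and TA 2.05. The widest TA domain had 8 wells on the mean profile, but 13 in replicate I alone, where the widest TB domain had 11.

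**Figure D5:**
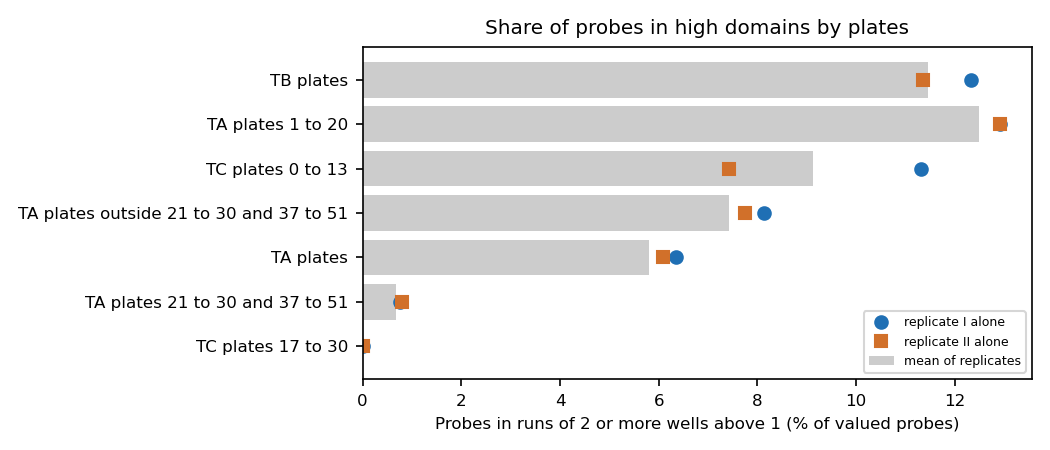
Share of valued probes in runs of 2 or more wells above 1, in percent, on the TB plates and on other plates, called on the mean of the replicates (bars), in replicate I alone (circles) and in replicate II alone (squares). TB plates (11.5%) lie near TA plates 1 to 20 (12.5%) and above all TA plates together (5.80%).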

How the data were processed

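Chromatin immunoprecipitation on 2-colour arrays was measured on 4 arrays, 2 replicates with a dye swap each. The deposited values are scores on a log-ratio scale made by the authors; the sources used here state neither the log base nor the direction, nor how background and dyes were treated. No intensities were used, so signal over background was not examined, and the number of arrays limits the precision. Columns of a swap were averaged, each replicate was centred on its median over 21728 probes, and replicates were averaged. Runs ended at an empty well but not at a plate border. SDs are over n = 2 replicates. Those of levels read the wells set by the mean profile in each replicate, so they leave out the spread in the calls. Those of width and of shares of probes use domains called in each replicate. Each probe was fitted against 0 with limma 3.58.1 (R 4.3.3), two-sided, with prior degrees of freedom estimated at 117, which is poorly determined here; the fit and the run search were tested on simulated data. Runs and figures were made in Python 3.11.15 (matplotlib 3.10.9, numpy 2.4.6, pandas 2.3.3). Named were the 5 widest domains, the 5 highest summits, the 5 longest gaps, the 5 plates with most and with fewest members (6 tied at 0) and 3 probes on each side of 1; other named wells were chosen after their values were seen. The members and lists were chosen with earlier results of these data known. Alternatives covered level, width, centring, scale, order, run ends, replicates and limma settings.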

Additional observations from a re-analysis of the deposited data

How the results depend on the processing

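No paired analysis was possible because the series has 1 group. A level of 0.75 gave 615 domains with 2176 members, a mean width of 3.54 wells and first flanks at 0.25; the higher level tried gave 158, 413, 2.61 and 0.68. Centring on the TB median gave 101 domains, 263 members, a width of 2.60 and flanks at 0.40, and no centring 590, 2030, 3.44 and 0.51, because each moves the level of 1 against the profile. Runs of at least 3 wells gave 187 domains, a width of 3.94 and flanks at 0.54. Wells ordered down the columns gave 236 domains, 530 members, a width of 2.25 and flanks at 0.16. Requiring each replicate above 1 gave 272 domains, 773 members, a width of 2.84, flanks at 0.58 and a longest domain of 10 wells. Letting single dips pass gave a width of 3.67 and flanks at 0.46, and ending runs at plate borders flanks at 0.50. With 1 replicate left out, domains numbered 350 to 394, members 1089 to 1182, the width was 3 to 3.11 and flanks were at 0.42 to 0.51; the longest domain then had 11 wells, not 18. Centred on the TB median, limma called 3120 TB probes higher in place of 5060, with 339 first flanks higher in place of 515 and 116 lower in place of 55; 15 were lower without centring. The median gap of 14 wells was 7 at a level of 0.75, 39 at the higher level, 28 with at least 3 wells, 59.5 when centred on the TB median and 8 without centring. Except where the level or centre itself moved, the cause was not tested. Of 57 alternatives for domains, members, width, flank level and TB probes called higher, 32 moved a value and 25 did not. Moved means by over 1.5 times (counts) or beyond the replicate spread. For the flank level that spread was the SD of 0.005, which leaves out the spread in the calls. With the longest domain, summit, gap, flank calls and low runs included, 62 of 110 moved and 48 did not. Not run were 4 separate arrays and a dye term, which identical swap columns make void.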

Other observations

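Members were unevenly spread over the rows of the TB plates, a pattern noticed in these data. Row A held 175 members (14.7% of its probes) and row D 103 (8.58%), and the 8 rows ranged between these shares. A grouping into alternate rows, chosen after the shares were seen, gave 12.9% in rows A, C, E and G and 10.0% in rows B, D, F and H. Called in replicate I alone the shares were 13.2% and 11.5%, and in replicate II alone 12.8% and 9.94%. Single rows broke the alternation, as row H (11.8%) exceeded row C (11.3%), and in replicate I row C (10.7%) lay below rows B (12.3%) and H (13.2%). On the TA plates the same rows had 5.80% each on the mean profile, 6.12% and 6.59% in replicate I, and 6.32% and 5.86% in replicate II. Single columns of the TB plates ranged from 9.75% in column 9 to 13.5% in column 3, and odd and even columns had 11.9% and 11.1%.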
